A study of Homo sapiens with 12 samples.

Results

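The libraries described here are those of MOLM-13 cells treated with quizartinib or vehicle in stromal conditioned medium, 6 of the 12 libraries of the series. MOLM-13 is a human acute myeloid leukemia (AML) cell line that carries an internal tandem duplication of FLT3 (FLT3-ITD), and its genotype was labelled WT. The members were chosen by medium: 3 libraries of cells given 3 nM quizartinib (AC220) in hBMSC-CM for 15 hr, and 3 libraries of cells given vehicle in hBMSC-CM. hBMSC-CM is medium conditioned by HS-5, a line of human bone marrow stromal cells, and mixed with RPMI. Cells of both groups grew in the same conditioned medium with no stromal cells in the culture, so the comparison changed only the drug. The other 6 libraries held the same drug and vehicle in RPMI alone and are used below where the response is compared between media, and in the shared estimate of the spread. Poly-A-selected mRNA was sequenced, and 12998 of 57353 gene names passed a mean count and a mean CPM (counts scaled to a common library total) of at least 1 over all 12 libraries. One cell line was used. The study's reporting checklist calls its replicates biological, but neither it nor the labels say whether the 3 libraries of a group came from separate cultures, so p-values measure the spread between these libraries.

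FLT3 is a receptor tyrosine kinase of early myeloid cells. The internal tandem duplication makes it signal without ligand, through the RAS and MAPK cascade, through PI3K, AKT and mTOR, and through STAT5. These pathways drive growth, ribosome production and cell division, and AKT holds the FOXO transcription factors out of the nucleus. Quizartinib occupies the kinase site of FLT3 and stops this signaling. Stromal cells secrete cytokines and growth factors that act on receptors other than FLT3, and the question of the comparison is which transcripts the drug still changes when these factors are present.

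The libraries in hBMSC-CM held 20573090 to 31546104 counts, of which at least 99.7% fell in the tested genes. The line was checked against markers of AML and monocytic cells. CD33, PTPRC, LYZ, MPO, CSF1R, ITGAM, SPI1 and CEBPA passed the filter, whereas CD14 and CD68 lay below it, and CD68 reached no more than 0.143 CPM in any hBMSC-CM library. The summed level of the 10 markers was 2070 to 2190 CPM with quizartinib and 1280 to 1310 CPM with vehicle, scaled by library totals. The members differed on this scale. LYZ stood at 988 to 1090 CPM with quizartinib and 462 to 493 CPM with vehicle, and CEBPA at 310 to 335 and 311 to 343 CPM. Of the 8 tested markers 3 rose and 2 fell with scaling by the trimmed mean of M values (TMM), which is used throughout, whereas 5 rose and 0 fell by library size alone, and 4 rose and 1 fell by upper-quartile scaling. Of 12 stromal markers 5 were at 0 in all of these libraries, among them THY1, LUM, DCN and POSTN, and the sum of the 12 was 10.1 to 11.5 CPM with quizartinib against 5.34 to 6.85 CPM with vehicle. COL1A1, which encodes a collagen chain, stood at 0.841 to 1.12 CPM against 0.142 to 0.3 CPM, and in RPMI, with no stromal medium, at 4.35 to 4.84 CPM against 0.117 to 0.277 CPM. T and B cell markers summed to at most 1.32 CPM and erythroid markers to at most 0.0317 CPM. The part of the marker sums in the results below was not tested.

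Quizartinib changed 8722 of the 12998 genes in hBMSC-CM at an adjusted p under 0.05 (67.1%), by edgeR's quasi-likelihood F-test and Benjamini-Hochberg adjustment. Genes that pass this threshold are referred to as called, and a value with ± is a log2 fold change and its standard error (SE) over 3 libraries a group. Of these, 4344 were higher (33.4% of the tested genes) and 4378 were lower (33.7%). Scaling by library size alone moved the share of calls that were higher from 49.8% to 62.8%, and upper-quartile scaling to 60.03%. Library-size scaling raised the log2 fold changes by a median of 0.10 and upper-quartile scaling by 0.082, which moves the medians of lists near 0. Most changes were small: over all genes the log2 fold change had a median size of 0.30, with a median SE of 0.064 among the called. Only 632 genes were called and at least 2-fold higher (4.86%), and 264 were called and at least 2-fold lower (2.03%). The 3 libraries of each group did not overlap for 8892 genes (68.4%). All counts of gene lists below are to be read against these shares, since 33.4% of all genes rose and 33.7% fell. Scaled counts are relative to the other genes of a library, and so are rises, falls and genes not called. The paper reports a lower yield of RNA from whole lysates with quizartinib in a separate experiment. Amounts of RNA per cell were not measured in these libraries.

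The largest rises among abundant genes included CD36, a fatty acid receptor of monocytes, CIITA and HLA-DRA of antigen presentation, MPEG1, a pore-forming protein of macrophages, and the transcription factors PRDM1, NFE2 and MXD1. CD36 stood at 4.65, 4.71 and 4.32 CPM in the 3 vehicle libraries and at 30.6, 30.2 and 30.9 CPM in the 3 quizartinib libraries. The groups lay far apart with little spread in either, and the log2 fold change was 2.74 ± 0.078 (SE), with an adjusted p of 1.24e-16 by edgeR's quasi-likelihood test. MPEG1 rose by 2.35 ± 0.06, PRDM1 by 2.26 ± 0.074 and NFE2 by 1.81 ± 0.064 on the log2 scale, each with no overlap between groups.

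The deepest fall among abundant genes was that of TNF, the inflammatory cytokine. TNF stood at 342, 322 and 317 CPM with vehicle and at 22.5, 23.6 and 27.5 CPM with quizartinib, and all treated libraries lay far below the vehicle libraries. Its log2 fold change was -3.74 ± 0.062, with an adjusted p of 2.51e-20 by edgeR's quasi-likelihood test. RGS16, a regulator of G protein signaling, fell by 4.36-fold, GPR84, a receptor for medium-chain fatty acids, by 4.1-fold, and TUBA4A, an alpha-tubulin, by 3.58-fold. Of the 15 deepest falls that met the rule for named genes, 7 were replication-dependent histone genes.

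**Figure D1:**
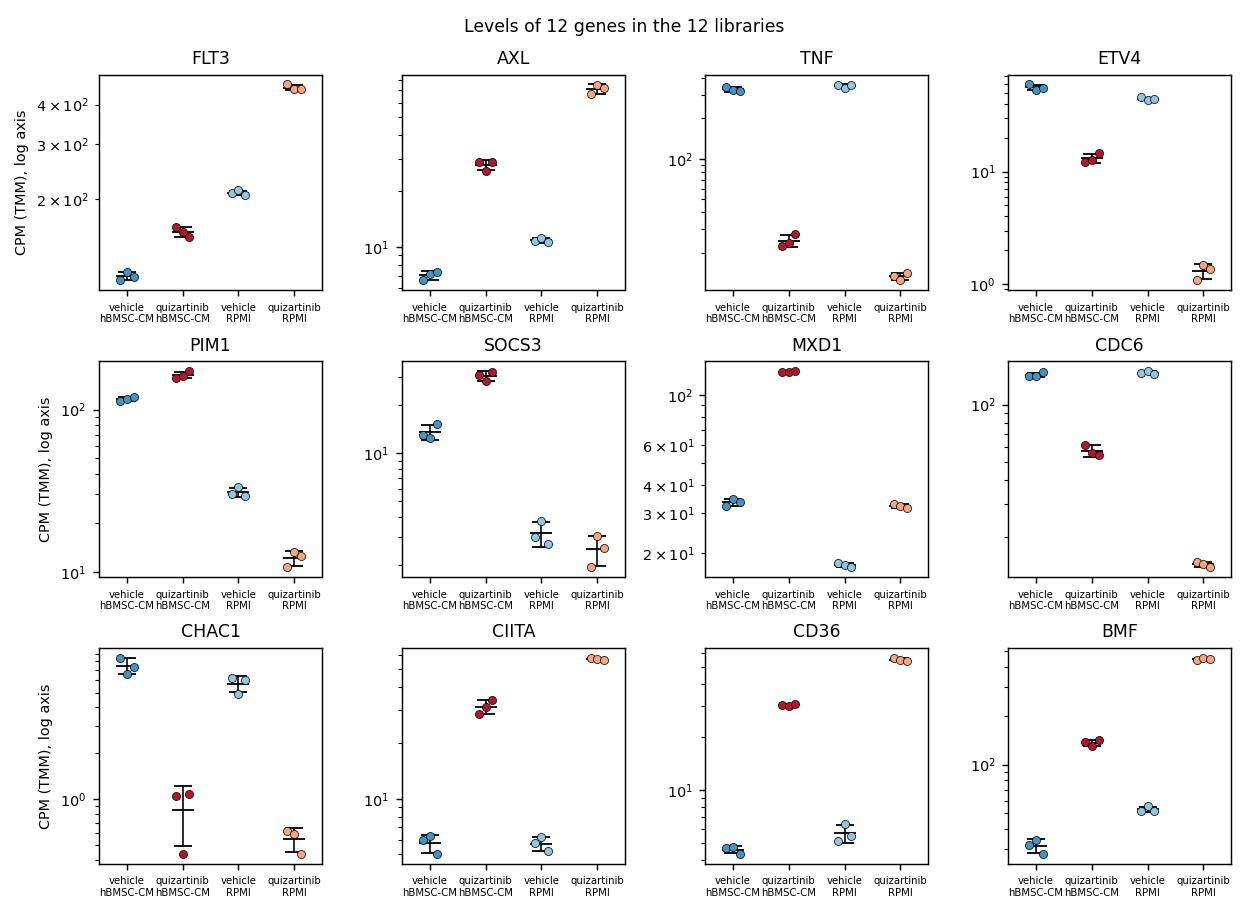
TMM-scaled CPM, on a log axis of its own range in each panel, for 12 genes in the 12 libraries, with points for the libraries and bars for the mean and SD of 3. In hBMSC-CM the vehicle and quizartinib points did not overlap for any of the 12 genes, and PIM1 and SOCS3 rose with quizartinib in hBMSC-CM whereas PIM1 fell in RPMI.

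The same tests in RPMI give the scale of the response. Log2 fold changes had a median size of 0.48 in RPMI against 0.30 in hBMSC-CM, and 21.4% of genes were called and at least 2-fold changed in RPMI against 6.89% in hBMSC-CM. The difference between the 2 log2 fold changes of a gene, the interaction, was called for 5881 genes (45.2%), of which 3390 were positive (26.1%) and 2491 negative (19.2%). Of 7707 genes called in the same direction in both media, 3889 changed less in hBMSC-CM by the interaction test and 135 changed more. A further 170 genes were called in opposite directions. For 845 genes the change was called in hBMSC-CM and not in RPMI, and the interaction was called for 335 of these. The 2 comparisons share no library, but they share one estimate of the spread.

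Among receptor tyrosine kinases, FLT3 itself, AXL and CSF1R rose while TYRO3, FGFR1 and EPHB4 fell. FLT3 stood at 110.4, 117 and 113 CPM with vehicle and at 162, 157 and 151 CPM with quizartinib. The treated libraries were all above the vehicle libraries, by 0.47 ± 0.042 on the log2 scale, and the rise was smaller than that in RPMI, where the log2 fold change was 1.12. AXL, a receptor for GAS6, stood at 6.6, 7.16 and 7.31 CPM with vehicle and at 28.6, 25.8 and 28.7 CPM with quizartinib. This was a 3.94-fold rise, with an adjusted p of 8.98e-15 by edgeR's quasi-likelihood test. CSF1R, the receptor for macrophage colony-stimulating factor, rose by 1.51 ± 0.083. TYRO3, of the same receptor family as AXL, fell by 2.13-fold from between 10.8 and 12.9 CPM to between 5.31 and 6.05 CPM, and FGFR1 fell by 1.87-fold. EPHB4, an ephrin receptor, fell by 1.57-fold with an adjusted p of 3.68e-08 in hBMSC-CM, by edgeR's quasi-likelihood test, whereas in RPMI its log2 fold change was 0.056 and not called. Over the list of 36 receptors, 11 were tested, 5 rose, 4 fell and 25 lay below the filter on low counts.

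Genes that the MAPK cascade switches on, including the phosphatases and Sprouty proteins that feed back on it, fell in most cases. Of 28 tested genes of this list, 21 were lower and 4 higher, against 33.7% and 33.4% of all genes, and the median log2 fold change was -0.74 against 0.0094 over all genes. ETV4, an ETS transcription factor downstream of ERK, stood at 59.3, 52.8 and 55.2 CPM with vehicle and at 12.1, 12.8 and 14.5 CPM with quizartinib. The 2 groups were separated by a wide gap, with a log2 fold change of -2.10 ± 0.07 and an adjusted p of 1.15e-15 by edgeR's quasi-likelihood test. SLCO4A1, an organic anion transporter, fell by 3.64-fold, DUSP5, a nuclear ERK phosphatase, by 3.21-fold and FOSL1, a component of AP-1, by 2.38-fold. SPRY4, an inhibitor of receptor signaling, fell by 2.08-fold and CCND1, cyclin D1, by 1.91-fold, both at levels under 10 CPM. DUSP6, the cytoplasmic ERK phosphatase, stood at 83.8, 79.3 and 82.9 CPM with vehicle and at 66.7, 70.8 and 70.3 CPM with quizartinib. That change was small, -0.25 ± 0.05 on the log2 scale, beside -2.14 in RPMI. In RPMI the median of the list was -1.70, and the interaction was positive for 17 of the 28 genes (background 26.1%) and negative for 1. That gene was IER2, an immediate early gene, which fell by 0.79 ± 0.085 in hBMSC-CM and had a log2 fold change of 0.12, not called, in RPMI. GEM, a small GTPase, rose from between 0.15 and 0.363 CPM to between 0.75 and 1.05 CPM, the largest rise of the list at a very low level.

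Targets of STAT5 did not move together. Of 17 tested genes 7 rose, 4 fell and 6 were not called, and the median log2 fold change was 0.041. The kinases PIM1 and PIM2, which STAT5 induces and which promote survival and translation, rose. PIM1 stood at 112, 117 and 119 CPM with vehicle and at 157, 161 and 172 CPM with quizartinib. The groups did not overlap, and the log2 fold change was 0.49 ± 0.054 with an adjusted p of 7.22e-08 by edgeR's quasi-likelihood test. In RPMI the same drug lowered PIM1 from between 29.3 and 33.1 CPM to between 10.7 and 13.3 CPM. PIM2 stood at 15.8, 14.5 and 15.2 CPM with vehicle and at 41.1, 36.9 and 39.6 CPM with quizartinib in hBMSC-CM. This was a 2.58-fold rise, whereas PIM2 fell in RPMI with a log2 fold change of -0.68.

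SOCS3, an inhibitor of JAK signaling induced by the cytokines that STAT3 serves, stood at 13.1, 12.4 and 15.3 CPM with vehicle and at 30.8, 28.1 and 32.4 CPM with quizartinib. All 3 treated libraries lay well above the vehicle libraries, with a log2 fold change of 1.16 ± 0.10 and an adjusted p of 1.23e-09 by edgeR's quasi-likelihood test. In RPMI the gene was at 2.72 to 3.79 CPM with vehicle and at 1.94 to 3.02 CPM with quizartinib, and was not called. CISH, another cytokine-induced inhibitor, rose by 0.29 ± 0.063 in hBMSC-CM, SOCS2 by 0.54 ± 0.048 and BCL6, a transcriptional repressor, by 1.39 ± 0.077. OSM, the cytokine oncostatin M, stood at 32.5, 30.4 and 29.5 CPM with vehicle and at 35.4, 28.3 and 29.1 CPM with quizartinib, and the groups overlapped. CCND3, cyclin D3, fell by 2.02-fold and LTB, lymphotoxin beta, by 3.2-fold. The interaction was positive for 9 of the 17 targets (26.1% of all genes) and negative for none.

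Genes of cytokine receptors and of the JAK-STAT pathway, regulators included, were mostly higher. Of 35 tested genes 22 rose and 7 fell, beside 33.4% and 33.7% of all genes, and 5 of those that rose did so at least 2-fold. In RPMI 22 of them rose and 10 fell. IL10RA, the interleukin-10 receptor chain, stood at 21.4 to 23.4 CPM with vehicle and at 67.6 to 74 CPM with quizartinib. STAT2, which carries interferon signals, rose from between 94.7 and 99.99 CPM to between 241 and 254 CPM. CRLF2, a receptor chain for thymic stromal lymphopoietin, rose by 1.53 ± 0.19 at under 3 CPM. PTPN6, the phosphatase SHP-1, fell by 0.52 ± 0.042.

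MYC, the transcription factor that drives ribosome production, fell little in hBMSC-CM, while its antagonists MXD1 and MXD4 rose. MYC stood at 787, 775 and 800.1 CPM with vehicle and at 583, 585 and 616 CPM with quizartinib. The groups did not overlap and the log2 fold change was -0.40 ± 0.044. MXD1, which competes with MYC for its partner MAX, stood at 32.3, 34.6 and 33.5 CPM with vehicle and at 126, 127 and 127 CPM with quizartinib. This 3.79-fold rise, with an adjusted p of 1.80e-17 by edgeR's quasi-likelihood test, was larger than the rise in RPMI, which was 0.86 on the log2 scale. MXD4 rose by 1.18 ± 0.056. Of the 10 tested genes of the MYC network 3 rose and 4 fell, and the number that fell was 1 with scaling by library size alone and 2 with upper-quartile scaling.

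Genes of ribosome biogenesis fell almost throughout, each by a small amount. Of 115 tested genes 105 were lower and 1 was higher, beside 33.7% and 33.4% of all genes, and none was called and at least 2-fold changed. The median log2 fold change was -0.50, and the range over the list was -0.90 to 0.16. MRTO4, an assembly factor of the large ribosomal subunit, stood at 148, 159 and 161 CPM with vehicle and at 87.9, 80.8 and 81.1 CPM with quizartinib. It was the deepest fall of the list, at -0.90 ± 0.047, with RRP9, a component of the U3 snoRNP, next at -0.90 ± 0.065. NSA2, another large subunit factor, was the gene that rose, by 0.16 ± 0.043. In RPMI 111 of them fell (39.2% of all genes), 2 rose (40.1%) and the median was -1.32. The interaction was positive for 104 of the 115 genes (26.1% of all genes). The letters CACGTG (E-box, searched on both strands) were found in 35 of 95 promoter windows of this list (36.8%). They were in 10.7% of those of the tested genes and in 7.43% of all 27305 windows of 300 bases. They were also in 11 of 42 windows of the lysosome list (26.2%), of which 37 of 61 tested genes rose. Genes called and at least 2-fold higher held them in 8.99% of windows, and those 2-fold lower in 8.56%. The window of MRTO4 from RefSeq (GRCh38.p14, chr1:19251555-19251854, plus strand) is shown because the gene fell most, with the E-box in capitals.
MRTO4: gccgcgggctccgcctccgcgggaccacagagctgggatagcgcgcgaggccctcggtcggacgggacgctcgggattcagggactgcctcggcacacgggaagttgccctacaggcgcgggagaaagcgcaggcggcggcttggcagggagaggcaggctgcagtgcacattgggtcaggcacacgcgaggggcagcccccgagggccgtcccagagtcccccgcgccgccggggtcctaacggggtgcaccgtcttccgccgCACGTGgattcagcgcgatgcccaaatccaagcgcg
A match of letters describes the sequence and is not a measured binding site.

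The machinery of protein synthesis moved in parts. Of 20 tested cytosolic tRNA synthetases 18 fell and none rose, with a median log2 fold change of -0.50. GARS, glycyl-tRNA synthetase, fell from between 325 and 350.3 CPM to between 170.0 and 173 CPM. Of 52 translation factors 29 fell and 9 rose. EIF4EBP1, the inhibitor of cap-dependent initiation that mTOR phosphorylates, fell from between 145 and 161 CPM to between 69 and 79.5 CPM, the only translation factor that was called and at least 2-fold lower. EIF5A, an elongation factor, fell by 1.79-fold. Cytosolic ribosomal protein genes had a median log2 fold change of 0.053, with 23 of 79 higher and 7 lower. That count depended on the scaling, with 49 higher by library size alone and 46 by upper-quartile scaling, and 13 higher without the libraries numbered 1. RPL26 rose most, by 0.51 ± 0.088. These genes have many near-identical pseudogenes, so their counts are uncertain.

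Genes of DNA replication also fell almost throughout, and regulators of G1 fell in most cases. Of 56 tested replication genes 53 were lower and 1 was higher, 13 were called and at least 2-fold lower (2.03% of all genes), and the median was -0.82. CDC45 and MCM10, which activate the replicative helicase, fell by 2.94-fold and 2.82-fold. CDC6, which loads the helicase onto origins, stood at 141, 141 and 148 CPM with vehicle and at 61.5, 55.7 and 54 CPM with quizartinib. Every treated library lay far below every vehicle library, with a log2 fold change of -1.32 ± 0.047 and an adjusted p of 2.80e-15 by edgeR's quasi-likelihood test. POLD4, the small subunit of DNA polymerase delta, was the gene that rose, by 0.91 ± 0.13. Of 28 regulators of G1, 21 fell and 6 rose. E2F7, a repressor of the E2F family, fell by 3.07-fold, cyclin E2 (CCNE2) by 2.83-fold, the phosphatase CDC25A by 2.73-fold and the CDK inhibitor CDKN2D by 2.67-fold. Of 40 genes of nucleotide synthesis 37 fell and 2 rose. RRM2, the regulated subunit of ribonucleotide reductase, fell from between 422 and 483 CPM to between 129 and 134 CPM, and NME1, a nucleoside diphosphate kinase, by 2.17-fold.

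E2F letters (TTTGGCGC, TTTCCCGC, TTTGCCGC or TTTCGCGC, both strands) were found in 21 of 49 promoter windows of the replication list (42.9%), in 5.72% of those of tested genes and in 3.33% of all windows. Of the genes that were called and at least 2-fold lower, 17.1% of 187 windows held them, and of those 2-fold higher 1.63% of 367. The CDC6 window (RefSeq, GRCh38.p14, chr17:40287629-40287928, plus strand) is shown as that of a replication gene with a large fall, with its E2F match in capitals.
CDC6: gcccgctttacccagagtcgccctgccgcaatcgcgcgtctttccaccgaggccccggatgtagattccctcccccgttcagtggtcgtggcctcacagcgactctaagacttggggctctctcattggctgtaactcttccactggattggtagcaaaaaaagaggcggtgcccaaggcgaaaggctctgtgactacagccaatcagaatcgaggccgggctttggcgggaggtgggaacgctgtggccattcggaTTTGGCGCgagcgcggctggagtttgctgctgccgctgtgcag
The match lies in the last 50 bases, after the annotated start of the gene.

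Replication-dependent histone genes, which are transcribed in S phase, fell together and deeply. Of 44 tested genes 43 were lower and 42 of these were at least 2-fold lower (2.03% of all genes), with a median log2 fold change of -1.55. HIST1H1B, a linker histone and among the most abundant, stood at 1854, 1949 and 2137 CPM with vehicle and at 582.3, 534 and 527 CPM with quizartinib. The groups were far apart, with a log2 fold change of -1.85 ± 0.063. HIST1H2BG fell most, by 4.11-fold at a low level. HIST1H2BE rose by 0.37 ± 0.12, and its call was lost when one of 2 libraries was left out (adjusted p = 0.0768 without quizartinib replicate 2 and 0.0675 without vehicle replicate 1, by edgeR's quasi-likelihood test). Histone transcripts of this kind mostly lack a poly-A tail and the library was selected for poly-A, and the genes have near-identical copies, so their levels cover the polyadenylated part and single genes are uncertain. In RPMI the median of the list was -1.79, and the interaction was positive for 28 genes (26.1% of all genes) and negative for none.

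Genes of mitosis fell in hBMSC-CM with a median close to that in RPMI. Of 75 tested genes 73 were lower and none was higher, against 33.7% and 33.4% of all genes. The median log2 fold change was -0.65 in hBMSC-CM and -0.58 in RPMI, and the interaction was positive for 15 genes (26.1% of all genes) and negative for 21 (19.2%). MYBL2, a transcription factor of the cell cycle, fell from between 230.5 and 281 CPM to between 92.6 and 109.9 CPM, and the centromere protein CENPM fell by 2.31-fold. AURKB, the kinase that corrects chromosome attachment, stood at 76.2, 68.5 and 76.7 CPM with vehicle and at 36.7, 33.6 and 35.9 CPM with quizartinib. It fell by 1.06 ± 0.055 in hBMSC-CM and by 1.07 in RPMI, both as log2 fold changes, and its interaction of 0.0066 was not called. The cell cycle homology region (CHR, TTTGAA or TTCGAA on either strand) was found in 47 of 66 windows of the mitosis list (71.2%), in 11.6% of those of tested genes and in 16.6% of all windows. The window of NCAPG, a condensin subunit (RefSeq, GRCh38.p14, chr4:17810729-17811028, plus strand), was chosen after its values were seen, because it held a CHR, which is in capitals. NCAPG fell from between 178 and 179 CPM to between 91.6 and 95.7 CPM.
NCAPG: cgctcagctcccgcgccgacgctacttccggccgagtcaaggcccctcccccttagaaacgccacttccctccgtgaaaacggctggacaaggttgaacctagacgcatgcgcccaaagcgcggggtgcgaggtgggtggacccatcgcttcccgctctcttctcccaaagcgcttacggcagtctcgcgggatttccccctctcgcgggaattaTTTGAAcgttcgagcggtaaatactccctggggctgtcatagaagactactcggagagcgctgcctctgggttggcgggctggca
The 6 letters of the CHR are short, and many windows of unrelated genes hold them.

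**Figure D2:**
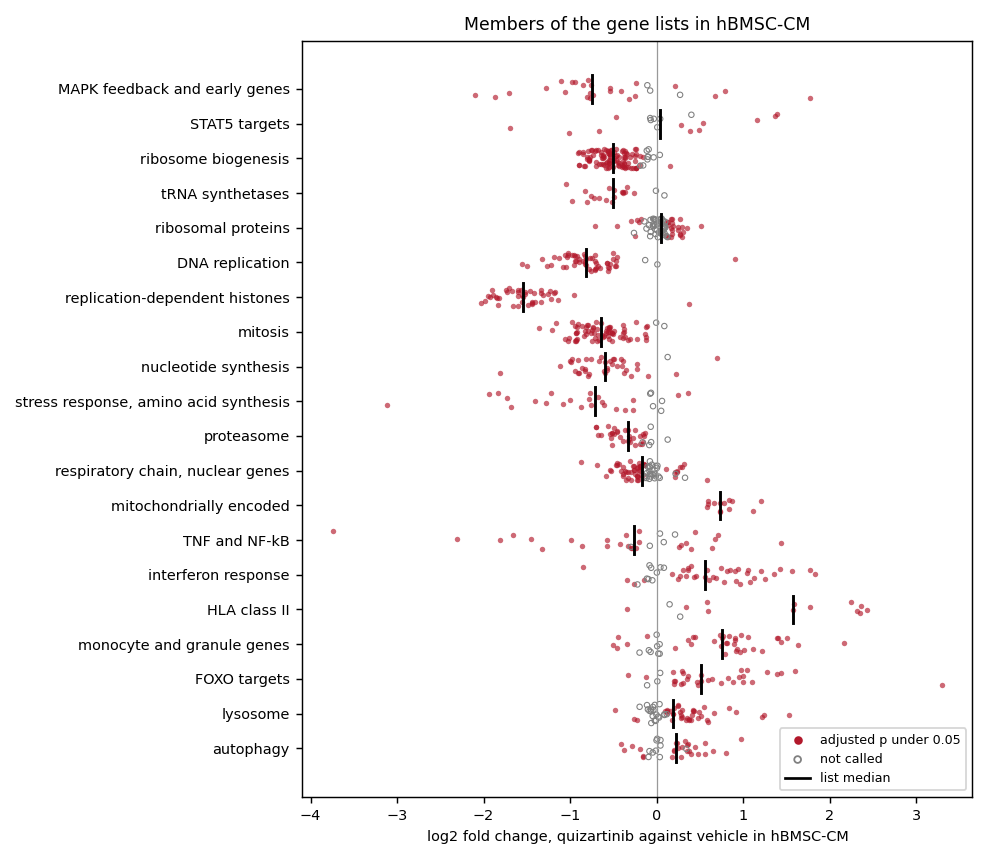
Log2 fold change of quizartinib against vehicle in hBMSC-CM for the tested members of 20 gene lists, with 1 point a gene, filled where called, and a vertical line at the list median. The medians ran from -1.55 for the histone genes to 1.58 for the HLA class II list, which includes regulators, and ribosomal protein genes clustered at 0.

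Genes of the integrated stress response and amino acid supply fell. In this list 21 of 28 tested genes were lower, 10 of them at least 2-fold, and 2 were higher, with a median log2 fold change of -0.72. CHAC1, a glutathione-degrading enzyme induced by ATF4, stood at 8.41, 6.66 and 7.4 CPM with vehicle and at 1.05, 0.439 and 1.08 CPM with quizartinib. The groups did not overlap, and the log2 fold change of -3.12 ± 0.20 was the second lowest named here after that of TNF. PSAT1, of serine synthesis, fell from between 139 and 154 CPM to between 40.8 and 46.8 CPM, STC2, a secreted stress glycoprotein, by 3.54-fold and ASNS, asparagine synthetase, by 3.85-fold at under 3 CPM. Among 22 amino acid transporters 15 fell and 3 rose, with SLC7A5, the large neutral amino acid carrier, at 399 to 417 CPM with vehicle and 131 to 146 CPM with quizartinib. The ATF4 element (CARE, TGATGCAAT, TGATGCAAC or TGATGCAAA, both strands) was found in 6 of 13 windows of the tRNA synthetases (46.2%), in 1 of 23 of the stress response list (4.35%), in 0.453% of those of tested genes and in 0.747% of all windows. The stress response window with a match is that of CHAC1 (RefSeq, GRCh38.p14, chr15:40953221-40953520, plus strand), with the element in capitals, here read on the other strand.
CHAC1: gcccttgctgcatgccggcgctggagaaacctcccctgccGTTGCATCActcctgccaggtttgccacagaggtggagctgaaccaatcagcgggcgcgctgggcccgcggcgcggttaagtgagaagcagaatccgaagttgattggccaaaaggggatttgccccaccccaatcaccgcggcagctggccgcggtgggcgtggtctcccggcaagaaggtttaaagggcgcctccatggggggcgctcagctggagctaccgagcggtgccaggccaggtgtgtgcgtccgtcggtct
The interaction of CHAC1 was not called, and its log2 fold change in RPMI was -3.34.

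**Figure D3:**
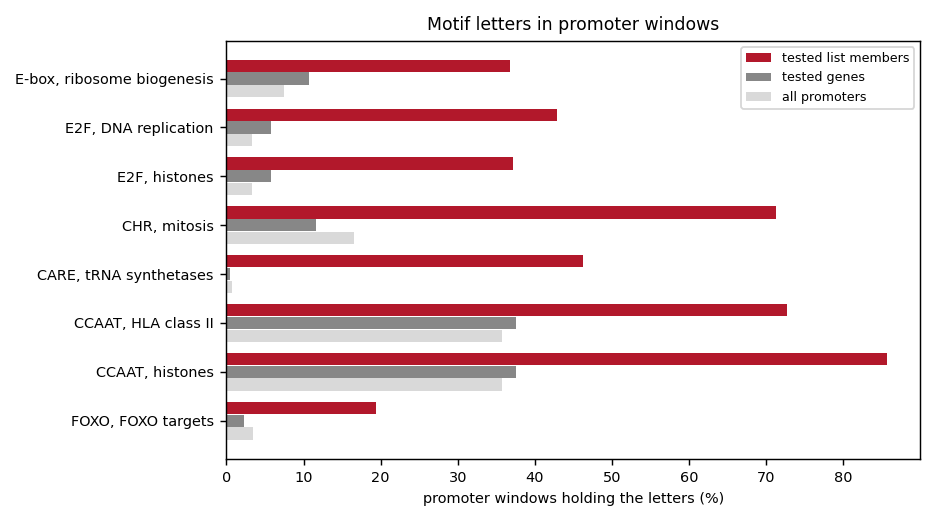
Share of RefSeq promoter windows of 300 bases that held the letters of a motif on either strand (%), for the tested members of a list, for all tested genes and for all promoters. The list bars stand above both backgrounds in each of the 8 pairs, from 19.4% for FOXO letters to 85.7% for CCAAT in histone genes. These pairs were picked from a larger set of motifs and lists, so their common direction is not a test. The lists, FOXO targets among them, were written from general knowledge with earlier results known.

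Mitochondrial genes split by the genome that encodes them. All 13 protein-coding genes of the mitochondrial genome rose (33.4% of all genes), with a median log2 fold change of 0.74 and a range of 0.59 to 1.21. MT-ATP8, a subunit of ATP synthase, stood at 7.85, 5.16 and 4.6 CPM with vehicle and at 10.8, 15.7 and 15.9 CPM with quizartinib. MT-ND1, a subunit of complex I and the smallest change of the list, stood at 75.7, 52.7 and 51.9 CPM with vehicle and at 84.6, 96.5 and 92.5 CPM with quizartinib. In both genes replicate 1 of vehicle was the highest of its group and replicate 1 of quizartinib the lowest of its group, and the groups did not overlap. The same held for the share of all counts from this genome, which was 0.613%, 0.462% and 0.458% with vehicle and 0.683%, 0.947% and 0.939% with quizartinib. All 13 remained called when both of these libraries were left out, and the part of this share in other results was not tested. In RPMI the median was 0.37 and the shares were 0.683% to 0.79% with vehicle and 1.02% to 1.10% with quizartinib. The interaction was positive for 7 of the 13 genes (26.1% of all genes) and negative for none. Among them MT-ND6, which is read from the other strand, rose by 1.12 ± 0.21 in hBMSC-CM and fell by 0.77 in RPMI as log2 fold changes, and its counts are uncertain because the strand setting of the counting was not given in the sources used here.

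Nuclear genes of the respiratory chain moved the other way. Of 80 tested 45 fell and 9 rose, with a median log2 fold change of -0.17. The size of this fall depended on the scaling, with 31 lower, 10 higher and a median of -0.064 by library size alone, and 33 lower, 9 higher and a median of -0.086 by upper-quartile scaling. ATP5MC1, a subunit of ATP synthase, fell by 1.84-fold, and CYCS, cytochrome c, from between 262 and 296 CPM to between 168 and 177 CPM. NDUFC1, of complex I, rose by 0.58 ± 0.054. Of 76 proteins of the mitochondrial ribosome 53 fell and 4 rose. Glycolysis and lipid synthesis followed the same direction at small sizes. Of 31 glycolytic genes 18 fell and 5 rose, with the phosphofructokinase PFKP at 293 to 300.4 CPM with vehicle and 156 to 164 CPM with quizartinib. Of 34 genes of cholesterol and fatty acid synthesis 22 fell and 1 rose, and FASN, fatty acid synthase, fell by 1.75-fold. A mixed list of genes of lipid uptake, efflux, storage and breakdown was more often higher, with 12 of 22 higher and 5 lower. Among them ABCA1, the cholesterol exporter, rose from between 22.4 and 24.6 CPM to between 46.3 and 49.3 CPM.

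In the PI3K and mTOR pathway no direction prevailed. Of 47 tested genes 17 rose and 15 fell, and the median of -0.024 was above 0 under both library-size and upper-quartile scaling. MTOR, the kinase, stood at 263, 244 and 242 CPM with vehicle and at 206, 211 and 203 CPM with quizartinib, a fall of 1.21-fold. DEPTOR, an inhibitor of mTOR, rose from between 2.7 and 2.9 CPM to between 7.99 and 8.39 CPM. ATM, the kinase that responds to DNA breaks, stood at 174, 169 and 163 CPM with vehicle and at 202, 221 and 212 CPM with quizartinib. It rose by 0.33 ± 0.047, with an adjusted p of 3.78e-06 by edgeR's quasi-likelihood test, while 23 of the 37 tested genes of DNA damage signaling fell and 7 rose.

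Targets of FOXO, which AKT restrains, rose in most cases. Of 35 tested genes 30 were higher and 2 lower, against 33.4% and 33.7% of all genes, 9 were at least 2-fold higher (4.86%), and the median log2 fold change was 0.52. DEPP1, a FOXO-induced regulator of autophagy, rose from between 0.15 and 0.528 CPM to between 3.64 and 4.55 CPM. Its vehicle level was very low, so the size of its rise is uncertain. With 1 library left out its log2 fold change ran from 2.98 to 3.65. YPEL5 rose by 3.02-fold and PIK3IP1, an inhibitor of PI3K, by 2.72-fold. In RPMI the median was 0.83, and the interaction was negative for 24 of the 35 genes (19.2% of all genes) and positive for 2. The FOXO letters GTAAACA were found on either strand in 6 of 31 windows (19.4%), beside 2.27% of those of tested genes. Lysosomal genes were higher in 37 of 61 cases and lower in 3, with the protease CTSF at 0.989 to 1.19 CPM with vehicle and 2.68 to 3.26 CPM with quizartinib. Of 37 autophagy genes 21 rose and 6 fell. VMP1, which takes part in forming the autophagosome, rose from between 114 and 122 CPM to between 205 and 209 CPM, and in RPMI its log2 fold change was -0.034 and not called.

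In the BCL2 family the BH3-only genes BMF and HRK rose and PMAIP1 fell. BMF, which binds and neutralises the protective members, stood at 32.1, 34.2 and 28.1 CPM with vehicle and at 138, 130.02 and 141 CPM with quizartinib. Each treated library lay far above the vehicle libraries, with a log2 fold change of 2.12 ± 0.058 and an adjusted p of 6.71e-17 by edgeR's quasi-likelihood test. In RPMI the rise was larger, from between 51.8 and 55.4 CPM to between 439 and 452 CPM. HRK, a BH3-only gene at low level, rose by 2.20 ± 0.20. PMAIP1, which encodes NOXA, stood at 26.8, 28.3 and 29 CPM with vehicle and at 13.5, 13.3 and 13.7 CPM with quizartinib, and its fall of 1.05 ± 0.064 exceeded that in RPMI by the interaction test. The protective gene MCL1 stood at 296, 304 and 303 CPM with vehicle and at 292, 299.6 and 287 CPM with quizartinib. Its groups overlapped and it was not called. BCL2 fell by 0.33 ± 0.045 and BCL2A1 by 0.90 ± 0.13. Of the 15 tested members 4 rose, 5 fell and 6 were not called.

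Genes of the TNF and NF-kB pathway, a list that includes TNF itself, were divided. Of 32 tested genes 18 fell and 9 rose, and 6 of those that fell did so at least 2-fold. TNFAIP3, which ends NF-kB signaling, stood at 75, 70.6 and 68.9 CPM with vehicle and at 20.5, 20.4 and 20.6 CPM with quizartinib, and the 3 treated values lay within 1 CPM of each other. CCL2, a monocyte chemokine, fell by 4.93-fold and IL1B, interleukin-1 beta, by 3.15-fold. BCL3, a nuclear partner of NF-kB, rose from between 6.61 and 8.44 CPM to between 15.9 and 22.9 CPM.

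Interferon response genes were higher in 34 of 47 tested cases and lower in 4, with 11 at least 2-fold higher and a median log2 fold change of 0.56. ISG20, an exonuclease, rose by 3.55-fold and OASL, an antiviral protein, by 3.38-fold at about 2 CPM. USP18, which limits interferon signaling, fell by 0.85 ± 0.13. HLA class II proteins present antigen on monocytes and dendritic cells. Their genes were listed together with CD74, CTSS and the regulators CIITA, RFX5, RFXANK and RFXAP. This class II list had the highest median of all lists. Of 14 tested genes 11 rose, 8 of them at least 2-fold (4.86% of all genes), and 1 fell, with a median of 1.58. CIITA, the master regulator of HLA class II genes, stood at 5.97, 6.26 and 5.03 CPM with vehicle and at 28.6, 31.3 and 34 CPM with quizartinib. The groups were far apart, with a log2 fold change of 2.43 ± 0.086 and an adjusted p of 2.39e-15 by edgeR's quasi-likelihood test. HLA-DRA stood at 10.8, 11.2 and 11.5 CPM with vehicle and at 59.6, 54.4 and 56 CPM with quizartinib, a 5.08-fold rise. HLA-DMB, which helps load peptides, rose by 5.12-fold. HLA genes are polymorphic and similar to each other, so the split of reads among them is uncertain. Of 18 class I genes 10 rose and 4 fell, with none at least 2-fold changed. The letters CCAAT are part of the box through which class II promoters are switched on. They were found on either strand in 8 of 11 windows of the class II list (72.7%) and in 37.5% of those of tested genes. Lists that fell held them too, with 85.7% of histone windows and 68.2% of mitosis windows. They were in 36% of windows of genes called and at least 2-fold higher and in 57.8% of those 2-fold lower. The longer letters CTGATTGG (Y-box) were in 4 of 11 windows of the class II list (36.4%) and in 5.71% of those of tested genes. The window of HLA-DPB1 (RefSeq, GRCh38.p14, chr6:33075740-33076039, plus strand), a class II gene that rose by 2.32 ± 0.18 at under 4 CPM, is shown with its matches in capitals.
HLA-DPB1: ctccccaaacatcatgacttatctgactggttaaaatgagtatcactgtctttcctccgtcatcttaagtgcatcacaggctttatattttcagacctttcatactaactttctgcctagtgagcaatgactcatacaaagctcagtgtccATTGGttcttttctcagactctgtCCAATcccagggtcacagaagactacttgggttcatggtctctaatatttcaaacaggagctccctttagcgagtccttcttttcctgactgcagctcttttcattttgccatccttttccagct
It held 2 matches, 1 on each strand, and neither was part of the longer letters CTGATTGG.

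Genes of monocytes and their granules were mostly higher. Of 44 tested genes 31 were higher and 5 lower, 10 were at least 2-fold higher, and the median log2 fold change was 0.76 in hBMSC-CM and 0.40 in RPMI. The interaction was positive for 24 of the 44 genes (26.1% of all genes) and negative for 5 (19.2%). MS4A6A, a membrane protein of monocytes, rose from between 34.7 and 38.6 CPM to between 112 and 117 CPM, and its rise was larger than in RPMI by the interaction test. S100A8, a calcium-binding protein of granulocytes and monocytes, rose from between 2.55 and 3.27 CPM to between 7.64 and 8.34 CPM. MSR1, the scavenger receptor, rose by 2.17 ± 0.31 at about 1 CPM. MPO, the granule enzyme of immature myeloid cells, fell by 0.45 ± 0.15, and it was no longer called without vehicle replicate 3 (adjusted p = 0.1065) or quizartinib replicate 2 (adjusted p = 0.0514), or with library-size scaling (adjusted p = 0.0562), by edgeR's quasi-likelihood test. In these bulk samples fewer cells of a kind and less RNA per cell cannot be told apart. Of 28 myeloid transcription factors 10 were higher (35.7%), close to the 33.4% of all genes, and 5 were lower (17.9%). Of 21 genes of adhesion and homing 12 rose and 4 fell. CXCR4, the receptor that holds cells in the marrow, rose from between 119 and 127 CPM to between 218 and 233 CPM. CCR7, a lymph node homing receptor, rose from between 0.237 and 0.551 CPM, a very low level, to between 2.81 and 4.08 CPM.

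**Figure D4:**
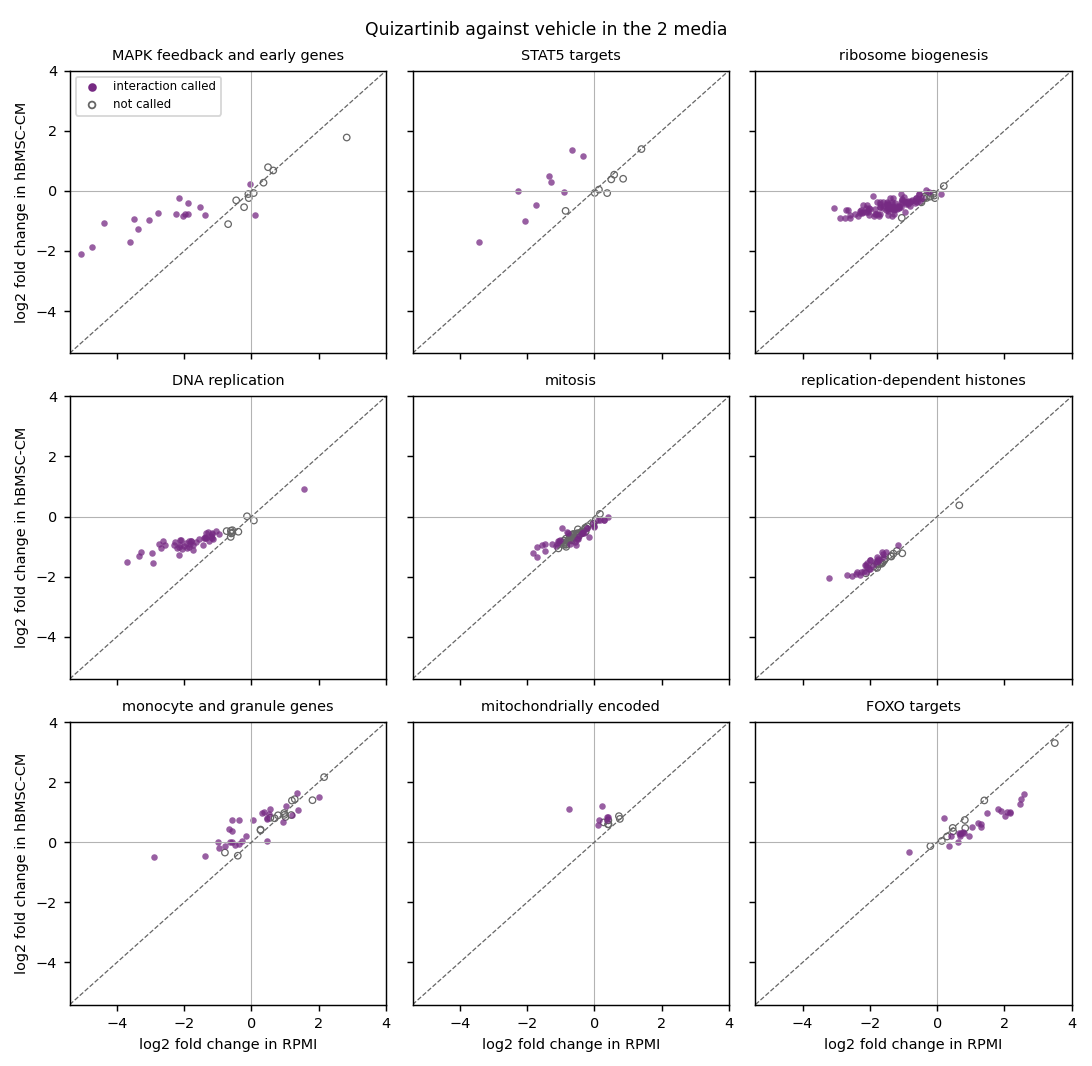
Log2 fold change of quizartinib against vehicle in hBMSC-CM (vertical) and RPMI (horizontal) for the tested genes of 9 lists, filled where the interaction was called, with a dashed line of equal change. Ribosome biogenesis and replication genes lie mostly above the line on the left, with medians of -0.50 and -0.82 in hBMSC-CM beside -1.32 and -1.69 in RPMI. Mitosis genes lie on both sides of it, with 15 positive and 21 negative interactions called among 75 genes.

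Of the 135 genes that changed more in hBMSC-CM than in RPMI, 86 rose and 49 fell. Besides MXD1, LRG1, a secreted glycoprotein that cytokines induce, rose from between 27.3 and 28.9 CPM to between 64.9 and 74.3 CPM and had a log2 fold change of 1.31 in hBMSC-CM and 0.48 in RPMI. KSR1, a scaffold of the MAPK cascade, rose by 1.02 ± 0.058 in hBMSC-CM beside 0.33 in RPMI. IRF2BPL, a transcriptional regulator, fell by 1.03 ± 0.077 in hBMSC-CM beside -0.26 in RPMI. Among genes of opposite direction, 109 rose in hBMSC-CM and fell in RPMI, and 61 did the reverse. APOL4, an apolipoprotein L gene, stood at 12.4, 12.7 and 11.7 CPM with vehicle and at 37.4, 36.1 and 35.7 CPM with quizartinib in hBMSC-CM. It rose 2.97-fold there, whereas in RPMI it fell from between 3.6 and 4.24 CPM to between 1.84 and 2.68 CPM.

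The positions of genes described above are from the GENCODE annotation of hg38, the build to which the reads were aligned. FLT3 spans chromosome 13 from 28003274 to 28100592, on the minus strand, and AXL spans chromosome 19 from 41219223 to 41261766, on the plus strand. TNF lies on chromosome 6 from 31575565 to 31578336, on the plus strand, and PIM1 on the same chromosome from 37170152 to 37175428, on the plus strand. ETV4 lies on chromosome 17 from 43527844 to 43579620, on the minus strand. BMF lies on chromosome 15 from 40087890 to 40108892, on the minus strand, and CIITA on chromosome 16 from 10866222 to 10943021, on the plus strand. Each is annotated as protein-coding, and the deposited counts are given per gene name, not per position within these spans.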

How the data were processed

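RNA-seq libraries of MOLM-13 cells were assigned to medium, drug and replicate by the labels, with 3 libraries in each of 4 groups, and no column was left without a sample. The authors trimmed adapters with BBDuk, aligned reads to hg38 and counted them per gene with STAR 2.6.0a, then summed identifiers under one gene name. The table they deposited holds raw counts, not normalized. Limma is also named in the submitters' processing notes. The strand setting of the counting is not given in the sources used here, and reads of near-identical genes cannot be reassigned.

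Genes with a mean count and mean CPM of at least 1 over 12 libraries were tested (12998 of 30572 with a count). TMM factors and 1 edgeR 4.0.16 quasi-likelihood model of 4 group means (8 residual degrees of freedom, R 4.3.3) gave the contrasts in hBMSC-CM and RPMI and their difference. Two-sided p-values were adjusted over all tested genes (Benjamini-Hochberg), with a threshold of 0.05. CPM values are TMM-scaled, except for the marker sums, which use library totals, and 1 CPM equals more than 20 counts in each hBMSC-CM library. The code was tested on simulated data.

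The members and the 43 gene lists were chosen with earlier results of these data known. Named genes were the 15 largest rises and 15 largest falls among called genes at a mean of at least 10 CPM whose groups did not overlap, the 4 largest each way in each list, all tested receptors, MAPK, STAT5, MYC and BCL2 genes with MTOR and ATM, and the 8 largest interactions of 3 kinds. The report describes part of them. MT-ND1, NCAPG and the marker genes fall outside the rule and were chosen after values were seen. Same-numbered libraries did not deviate together, so numbers were not treated as pairs. Promoter windows came from RefSeq and motifs were matched as exact letters. Alternatives were other scalings, DESeq2 1.42.0, limma-voom 3.58.1, other filters, the hBMSC-CM libraries alone, a replicate block, a threshold of 0.01 and leaving out each library.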

Additional observations from a re-analysis of the deposited data

Results flagged for a closer look

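The drug's effect differed between hBMSC-CM and RPMI for 5881 genes and for 86 of the 114 genes whose change the text gives. The test was the interaction term of edgeR's quasi-likelihood F-test with Benjamini-Hochberg adjustment. The interaction is the log2 fold change in hBMSC-CM minus that in RPMI, from 3 libraries in each of 4 groups, and no explanation of the differences was tested.

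Among the named genes that fell in both media and fell less in hBMSC-CM, the interaction was 3.32 for SPRY4, 2.96 for ETV4, 2.87 for SLCO4A1, 2.68 for MYC, 2.53 for CCND1, 2.32 for CCNE2 and 2.21 for MCM10. It was 2.14 for CDC25A, 2.13 for RGS16, 2.08 for FOSL1, 2.02 for CDC6, 1.99 for RRP9, 1.99 for GPR84 and 1.91 for DUSP5. Next in size, the interaction came to 1.90 for DUSP6, 1.82 for SLC7A5, 1.74 for LTB, 1.74 for NME1, 1.71 for STC2, 1.69 for MRTO4 and 1.63 for TNFAIP3. Further down it reached 1.59 for PTPN6, 1.37 for CDC45, 1.32 for TUBA4A, 1.21 for FASN, 1.18 for CYCS, 1.18 for HIST1H2BG and 1.16 for TYRO3. At smaller sizes it was 1.16 for CCL2, 1.10 for ATP5MC1, 1.04 for CCND3, 1.04 for EIF5A, 1.03 for RRM2, 1.01 for USP18 and 0.96 for TNF. Smaller still, it was 0.96 for EIF4EBP1, 0.82 for IL1B, 0.78 for PFKP, 0.64 for BCL2, 0.64 for PSAT1, 0.62 for CENPM and 0.52 for FGFR1. The smallest of this kind were 0.35 for MYBL2, 0.32 for GARS, 0.26 for HIST1H1B and 0.19 for TFRC.

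Among genes that rose in both media, those that rose less in hBMSC-CM had a negative interaction, which was -2.62 for COL1A1, -1.21 for ABCA1, -1.08 for DEPTOR, -1.07 for MXD4, -1.06 for PIK3IP1, -0.98 for YPEL5 and -0.96 for BMF. The values that followed were -0.89 for CTSF, -0.87 for CIITA, -0.81 for ISG20, -0.73 for AXL, -0.66 for POLD4, -0.65 for FLT3 and -0.55 for CD36. At smaller sizes the interaction was -0.51 for CSF1R, -0.47 for IL10RA, -0.44 for STAT2, -0.44 for HLA-DMB and -0.36 for CXCR4. The vehicle level of COL1A1 was very low in both media, so the size of its interaction is uncertain.

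Where the change had the same direction and was larger in hBMSC-CM, the interaction was 1.06 for MXD1, 0.83 for LRG1, -0.77 for IRF2BPL, 0.70 for KSR1, 0.38 for NFE2, -0.29 for PMAIP1, 0.28 for MS4A6A and 0.17 for ATM.

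Genes called in opposite directions had an interaction of 2.35 for APOL4, 2.04 for PIM2, 1.89 for MT-ND6, 1.84 for PIM1 and 1.58 for CISH.

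Genes called in hBMSC-CM and not in RPMI had an interaction of 1.498 for SOCS3, 0.98 for MT-ATP8, -0.91 for IER2, 0.83 for VMP1, -0.70 for EPHB4 and 0.47 for MT-ND1. Genes called in RPMI and not in hBMSC-CM had an interaction of 2.27 for OSM and 0.15 for MCL1.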

How the results depend on the processing

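The 8722 calls in hBMSC-CM ranged from 8148 to 8478 when 1 library was left out, with the higher calls at 3949 to 4180 and the lower at 4103 to 4298, and DESeq2's Wald test gave 8280. No gene called under both the TMM fit and an alternative had the other sign. Library-size scaling moved the log2 fold changes by a median of 0.10 and upper-quartile scaling by 0.082. Under library-size scaling 1 gene of the MYC network was lower, 49 ribosomal protein genes were higher, 7 snoRNA host genes lower and 6 higher, and 5 AML markers higher. Under upper-quartile scaling these were 2 for the MYC network, 46 for ribosomal proteins and 7 lower and 6 higher for snoRNA hosts. With no filter on low counts, which adds rare genes, 1214 genes were at least 2-fold higher and 428 lower, and with a mean CPM of at least 5 these were 311 and 175. At that filter, which removes low genes, 2 genes of the MYC network were lower and 0 stromal markers were left to rise. The MYC network had 2 lower genes with the hBMSC-CM libraries alone and at an adjusted p under 0.01, where negative interactions fell to 1630. Leaving out single libraries gave 2 to 4 lower genes in that network, with 2 in the fit without vehicle replicate 3, and the cause was not tested. Without both libraries numbered 1, an alternative added after seeing the data, 8046 genes were called and 13 ribosomal protein genes were higher.

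A replicate block gave 8611 calls and 5679 interactions and changed no call of the 114 genes whose change the text gives. Correlations of the deviations of same-numbered libraries were -0.227, 0.0446 and -0.101, so the numbers are not shown to pair the libraries. Of the 114 genes, calls of MPO and HIST1H2BE were lost in some alternatives. At 20573090 counts in the shallowest hBMSC-CM library, 3 counts are 0.146 CPM, so changes of genes near that level could not be measured.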

Other observations

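Genes of protein quality control, which the report does not describe, were mostly lower with quizartinib in hBMSC-CM. Of 37 tested proteasome genes 32 fell and none rose, beside 33.7% and 33.4% of all tested genes, and the median log2 fold change was -0.33. Of 41 chaperone genes 30 fell and 3 rose, with a median of -0.46. Of 30 genes of iron and redox balance 15 fell and 6 rose, and TFRC, the transferrin receptor, stood at 492, 517 and 511 CPM with vehicle and at 244, 246 and 242 CPM with quizartinib, with no overlap between the groups. Of 22 snoRNA host genes 11 fell and 2 rose with TMM scaling, but 7 fell and 6 rose under both library-size and upper-quartile scaling, so no direction is given for them.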
